A study of Mus musculus with 6 samples.

Results

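Striatal projection neurons of the direct pathway were described through 9 genes that mark them, Drd1, Tac1, Pdyn, Isl1, Sfxn1, Eya1, Slc35d3, Ebf1 and Gnb4. The members were chosen by gene symbol from a table of 23067 genes, and all 9 had a row. Levels were measured by bulk RNA sequencing of dorsal striatum at postnatal day 21. The knock-in group held 3 libraries from mice titled male and homozygous for the G2019S change in Lrrk2 (genotype Lrrk2G2019S/G2019S), an allele carried in the germline and found in familial Parkinson's disease. The wild-type group held 3 libraries of the same age, sex label and tissue (genotype Lrrk2WT/WT). Each library is 1 column of FPKM, a level per length of transcript scaled to library size. The labels do not say whether the 3 samples of a genotype are 3 animals, so each p-value reflects only how far these samples differ, part of which may be technical.

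The direct pathway runs from the striatum to the internal pallidum and the substantia nigra reticulata. Its neurons carry the D1 dopamine receptor, which couples to the stimulatory G protein Golf and adenylyl cyclase and so raises cyclic AMP. They release GABA together with peptides cut from the Tac1 and Pdyn precursors. The indirect pathway instead carries the D2 receptor (Drd2), an adenosine receptor (Adora2a) and enkephalin (Penk). Dopamine acts on both pathways, and the pathways themselves have opposite effects on movement.

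The regions before the start sites of the receptor gene, of both peptide genes and of Isl1 are shown because the results below turn on the first 3, and Isl1 carries the core letters closest to a start. Each line gives 250 bases from RefSeq on GRCm38.p6, 5′ to 3′ on the strand of the gene, ending at the base before the first listed start. Capitals mark TGACG or its reverse complement CGTCA, the core of the cyclic AMP response element.
Drd1, chr13:54055659-54055908, minus strand: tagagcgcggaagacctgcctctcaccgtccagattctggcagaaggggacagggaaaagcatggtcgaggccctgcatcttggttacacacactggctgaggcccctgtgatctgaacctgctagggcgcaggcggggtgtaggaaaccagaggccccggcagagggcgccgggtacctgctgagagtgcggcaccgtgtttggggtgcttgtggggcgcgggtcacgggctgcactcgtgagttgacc
Tac1, chr6:7554811-7555060, plus strand: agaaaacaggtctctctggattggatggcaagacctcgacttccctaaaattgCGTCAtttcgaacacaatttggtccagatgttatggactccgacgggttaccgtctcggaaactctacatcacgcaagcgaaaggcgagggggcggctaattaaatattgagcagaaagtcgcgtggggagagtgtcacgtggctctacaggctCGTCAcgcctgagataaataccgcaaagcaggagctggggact
Pdyn, chr2:129699939-129700188, minus strand: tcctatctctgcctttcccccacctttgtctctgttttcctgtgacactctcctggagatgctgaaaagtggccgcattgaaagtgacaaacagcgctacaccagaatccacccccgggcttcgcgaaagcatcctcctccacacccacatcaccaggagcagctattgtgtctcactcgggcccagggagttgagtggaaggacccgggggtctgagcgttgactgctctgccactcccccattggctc
Isl1, chr13:116309689-116309938, minus strand: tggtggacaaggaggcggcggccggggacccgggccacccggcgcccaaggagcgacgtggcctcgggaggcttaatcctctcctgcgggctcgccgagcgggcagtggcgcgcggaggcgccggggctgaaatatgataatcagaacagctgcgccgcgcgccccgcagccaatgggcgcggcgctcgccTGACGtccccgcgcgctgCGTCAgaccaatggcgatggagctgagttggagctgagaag

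In the table of promoters, 7 of the 9 members had an entry, 10 entries in all, and Eya1 and Gnb4 had none. The core was found before 3 members, Tac1, Isl1 and Slc35d3, in 3 of the 10 entries. Its first base lay 197 and 43 bases before the start of Tac1, 59 and 41 bases before that of Isl1, and 149 bases before that of Slc35d3. These are RefSeq starts, and other annotations can differ. In GENCODE M21, Tac1 begins at 7554879 and Drd1 at 54055705, inside their printed windows. The Tac1 core at 43 bases lies within the gene as annotated there. Among all 32851 windows of this length, 17.8% held the core on either strand. The full palindrome TGACGTCA, which contains the core, was in 0 of the 10 entries and in 1.55% of all windows. These are matches of letters only.

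On GRCm38, with the GENCODE M21 annotation, Drd1 and Sfxn1 were neighbours on chromosome 13. Drd1 (ENSMUSG00000021478) lies on the minus strand at 54051183 to 54055705 and Sfxn1 (ENSMUSG00000021474) on the plus strand at 54071869 to 54108342. The genes point away from each other across 16163 bases that hold 0 annotated genes. No member shares exon bases with another gene on either strand.

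The libraries were alike over the whole table, with correlations over genes of 0.991 to 0.994 on the log2(FPKM + 1) scale, and their FPKM summed to 324300, 325963 and 335508 in knock-in and 314146 to 323715 in wild type. The striatal marker Ppp1r1b, which encodes DARPP-32, stood at 768 ± 15.8 FPKM in knock-in and 796 ± 37.4 FPKM in wild type (SD, n = 3 each). Xist, the RNA of X inactivation, was at 27.2 to 39.3 FPKM in knock-in and 31.4 to 33.0 FPKM in wild type, which goes against the sex in the titles in all 6 libraries. Ddx3y, a gene of the Y chromosome, was looked up and had no row. Lrrk2 itself was at 11.9 ± 0.579 FPKM in knock-in and 11.3 ± 0.625 FPKM in wild type, and a level cannot check labels that differ by a point change. Knock-in replicates 1 and 2 carried more cortical RNA than other libraries. Summed oligodendrocyte RNA was lower in every knock-in library than in any wild-type library, and lowest in knock-in replicate 3. Those values stand beside the results they touch.

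No member passed the test between genotypes. In bulk tissue fewer cells of a type and less RNA per cell cannot be told apart, here and below. Of the 9, 8 reached a mean of 1 FPKM over the 6 libraries and entered a limma fit of all 14156 genes that did. Of these 8, 5 were higher and 3 lower in knock-in, 0 were called at an adjusted p under 0.05 and 0 had an unadjusted p under 0.05, and each had an adjusted p of 0.997. The tally turned with the libraries and the scale, to 2 higher and 6 lower without knock-in replicate 3, 3 and 5 without wild type replicate 1, and 4 and 4 when libraries were rescaled to a fixed sum. Over all genes tested 43.6% were higher in knock-in, 0.0212% were called and 4.27% had an unadjusted p under 0.05. A count of 0 called among 8 is near that background. The median log2 difference of the 8 was 0.04, against -0.01 over all genes tested, and it was -0.05 without knock-in replicate 3 and -0.02 without wild type replicate 1. When libraries were rescaled to a fixed sum it was -0.001, but the median over all genes tested fell as well, to -0.06. The groups overlapped in all 8, and in Eya1 too, where 9.51% of genes tested did not overlap, 2.92% with knock-in higher and 6.58% with knock-in lower. Each of the 16 alternative settings also called 0 members.

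Drd1, the receptor that defines these neurons, was the most abundant member. Its levels were 73.6, 74.6 and 92.6 FPKM in knock-in replicates 1 to 3, against 75.8, 75.9 and 81.2 FPKM in wild type. Knock-in replicate 3 was the highest of the 6 libraries, and the other knock-in libraries were the lowest, so the groups overlapped. The means were 80.3 ± 10.7 FPKM in knock-in and 77.7 ± 3.08 FPKM in wild type (SD, n = 3 each), a ratio of 1.03. The log2 difference was 0.04 (SE 0.10), and the 95% interval of the fold ran from 0.878 to 1.203. Fold intervals here and below are for FPKM + 1. Without knock-in replicate 3 the difference was -0.07, with a ratio of 0.954.

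Tac1, the precursor of substance P and neurokinin A, had the widest spread of the members. Its levels were 43.7, 48.3 and 63.5 FPKM in knock-in replicates 1 to 3, against 40.9, 49.6 and 45.3 FPKM in wild type. Knock-in replicate 3 stood above all others, and knock-in replicates 1 and 2 lay within the wild-type range. Means were 51.8 ± 10.4 FPKM in knock-in and 45.3 ± 4.32 FPKM in wild type (SD, n = 3 each), a ratio of 1.14. The log2 difference of 0.18 (SE 0.14) had a 95% interval of the fold from 0.897 to 1.42. Without knock-in replicate 3 the ratio was 1.015 and the difference 0.02.

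Pdyn, the precursor of the dynorphins that act on kappa opioid receptors, did not share the high value of knock-in replicate 3. Its levels were 34.1, 39.2 and 37.2 FPKM in knock-in replicates 1 to 3, against 40.0, 38.6 and 37.1 FPKM in wild type. The lowest value was that of knock-in replicate 1, and the highest that of wild type replicate 1. Means were 36.8 ± 2.58 FPKM in knock-in and 38.6 ± 1.44 FPKM in wild type (SD, n = 3 each), with a log2 difference of -0.07 (SE 0.07) and a 95% interval for the fold of 0.853 to 1.07. Without knock-in replicate 1 the difference was -0.014.

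**Figure D1:**
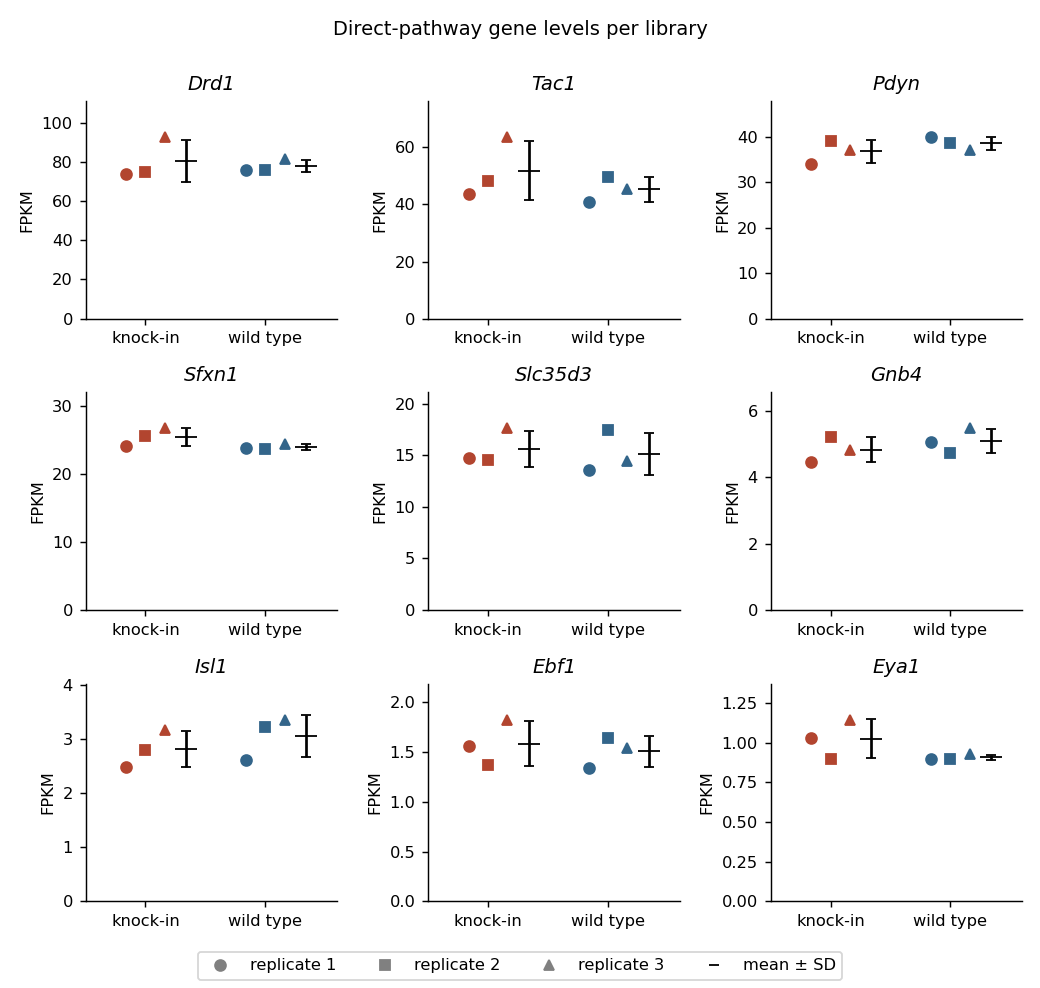
FPKM of the 9 direct-pathway genes in each library, 1 panel per gene with the vertical axis from 0, knock-in on the left and wild type on the right; black bars are means ± SD (n = 3 each). Drd1 and Tac1 are highest in knock-in replicate 3, at 92.6 and 63.5 FPKM, and the groups overlap in all 9 panels.

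The genes that cut these precursors and receive their peptides were compared next. Of 18 listed genes 16 had a row and 12 were tested, of which 8 were higher and 4 lower, 0 were called, and the median log2 difference was 0.04. Pcsk1, a convertase that cleaves peptide precursors, measured 2.51, 2.08 and 2.53 FPKM in knock-in replicates 1 to 3 and 1.57, 2.17 and 2.12 FPKM in wild type. Knock-in replicate 2 lay within the wild-type range, and the log2 difference of 0.19 had an adjusted p of 0.997 in limma and was 0.097 without wild type replicate 1. Tacr1, the substance P receptor, averaged 5.27 ± 0.809 FPKM in knock-in and 5.08 ± 0.364 FPKM in wild type, and Oprk1, the kappa opioid receptor, 3.83 ± 0.965 FPKM in knock-in and 3.81 ± 0.254 FPKM in wild type (SD, n = 3 each). In both receptor genes the highest value was that of knock-in replicate 3, at 6.20 FPKM for Tacr1 and 4.94 FPKM for Oprk1.

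Gnb4, a beta subunit of G proteins, came next below Slc35d3 in level. Its levels were 4.46, 5.21 and 4.82 FPKM in knock-in replicates 1 to 3, against 5.07, 4.73 and 5.47 FPKM in wild type. Knock-in replicate 1 was lowest and wild type replicate 3 highest. The log2 difference was -0.06 (SE 0.08), with a 95% interval for the fold of 0.846 to 1.08, and it was -0.017 without knock-in replicate 1 but -0.11 when knock-in replicate 2 was left out. On the same per-length scale the related genes Gnb1, Gnb2 and Gnb5 were more abundant and Gnb3 was less abundant. Gnb2 was the highest, at 102 ± 5.88 FPKM in knock-in and 101 ± 1.65 FPKM in wild type (SD, n = 3 each). Gnb1 averaged 84.1 ± 2.62 FPKM in knock-in and 84.0 ± 0.385 FPKM in wild type, and Gnb5, the beta subunit that partners RGS proteins, 97.7 ± 14.6 FPKM in knock-in and 91.8 ± 1.81 FPKM in wild type (SD, n = 3 each). Gnb4 is also made in the claustrum. That list had 6 of 7 genes with a row, 0 at 0, of which 3 were higher, 3 lower and 0 called, and it contains Gnb4 itself. Without Gnb4 its other 5 genes summed to 36.9, 47.6 and 37.1 FPKM in knock-in replicates 1 to 3, against 36.7, 36.9 and 36.9 FPKM in wild type. Nr4a2, a transcription factor of that list, measured 1.66, 2.67 and 0.352 FPKM in knock-in replicates 1 to 3, against 0.931, 0.351 and 0.435 FPKM in wild type. The part of such RNA in the level of Gnb4 was not tested.

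Downstream of the receptor, 24 genes of D1 signalling, Gnb4 among them, had a row and 23 were tested, with 10 higher, 13 lower, 0 called and a median log2 difference of -0.01. Gnal, the alpha subunit of Golf, averaged 156 ± 15.1 FPKM in knock-in and 160 ± 4.77 FPKM in wild type. Adcy5, the main striatal adenylyl cyclase, averaged 251 ± 8.91 FPKM in knock-in and 253 ± 8.71 FPKM in wild type (SD, n = 3 each), with a 95% interval for the fold of 0.894 to 1.10. Their log2 differences were -0.04 for Gnal and -0.01 for Adcy5. Gng7, the gamma subunit of striatal Golf, measured 202, 316 and 220 FPKM in knock-in replicates 1 to 3 and 226, 231 and 258 FPKM in wild type, so knock-in replicate 2 stood above the rest.

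Prkacb, a catalytic subunit of protein kinase A, had the smallest p of that list among genes higher in knock-in. Its levels were 44.7, 45.1 and 57.0 FPKM in knock-in replicates 1 to 3, against 25.1, 43.4 and 44.3 FPKM in wild type. The groups did not overlap, but the gap to the 2 upper wild-type libraries was small and wild type replicate 1 stood apart. The log2 difference was 0.41 (SE 0.23, adjusted p = 0.997 in limma), and 0.14 without wild type replicate 1.

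Isl1, a LIM-homeodomain factor that directs neurons to the direct-pathway fate in mouse, measured 2.48, 2.80 and 3.16 FPKM in knock-in replicates 1 to 3, against 2.62, 3.21 and 3.35 FPKM in wild type. The lowest value was in knock-in replicate 1 and the highest in wild type replicate 3. Means were 2.81 ± 0.339 FPKM in knock-in and 3.06 ± 0.389 FPKM in wild type (SD, n = 3 each), with a log2 difference of -0.09 (SE 0.10) and a 95% interval for the fold of 0.800 to 1.10. The difference was -0.027 without knock-in replicate 1 and -0.17 without wild type replicate 1. It was -0.12 with 0.1 in place of 1 added to FPKM. Isl1 is also made by cholinergic interneurons. Their 7 listed genes all had a row, 0 at 0, and summed to 18.4 to 23.8 FPKM in knock-in and 17.8 to 23.7 FPKM in wild type, with 4 of the 6 tested higher, 2 lower and 0 called. Slc5a7, the choline transporter, was highest in knock-in replicate 3 and wild type replicate 3, at 4.43 FPKM and 3.53 FPKM. The part of these interneurons in the level of Isl1 was not tested.

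Ebf1, a helix-loop-helix factor needed for direct-pathway neurons to mature in mouse, measured 1.56, 1.37 and 1.82 FPKM in knock-in replicates 1 to 3, against 1.34, 1.64 and 1.54 FPKM in wild type. The highest value was in knock-in replicate 3 and the lowest in wild type replicate 1. The log2 difference was 0.04 (SE 0.09), with a 95% interval for the fold of FPKM + 1 of 0.893 to 1.19. The difference was -0.02 without knock-in replicate 3, and 0.06 with 0.1 in place of 1 added to FPKM. Ebf1 is also made by mural cells of vessels. Mural and endothelial genes, 10 of 10 with a row and 0 at 0, summed to 93.4 to 106.3 FPKM in knock-in and 98.9 to 106 FPKM in wild type, with 3 higher, 7 lower and 0 called. Pdgfrb, the pericyte receptor, averaged 7.21 ± 0.274 FPKM in knock-in and 7.86 ± 0.540 FPKM in wild type (SD, n = 3 each). Their part in the level of Ebf1 was not tested.

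Eya1, a cofactor of sine oculis homeobox factors with phosphatase activity, was the least abundant member and fell just outside the filter, with a mean of 0.965 FPKM, where Ebf1, the next member up, was just inside at 1.54 FPKM. Its levels were 1.03, 0.899 and 1.14 FPKM in knock-in replicates 1 to 3, against 0.899, 0.896 and 0.926 FPKM in wild type. Knock-in replicates 1 and 3 lay above the wild-type range and knock-in replicate 2 within it. With no filter its log2 difference was 0.08 (adjusted p = 0.971 in limma). Among relatives and partners of the 3 regulators, 9 of 13 listed genes had a row and 5 were tested, with 1 higher, 4 lower and 0 called. Eya3 measured 5.85, 6.23 and 2.40 FPKM in knock-in replicates 1 to 3, against 6.34, 6.24 and 6.27 FPKM in wild type. The log2 difference of -0.40 (adjusted p = 0.997 in limma) rested on knock-in replicate 3 and was -0.05 without it.

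Sfxn1, a serine carrier of the inner mitochondrial membrane, was the steadiest member. Its levels were 24.1, 25.5 and 26.6 FPKM in knock-in replicates 1 to 3, against 23.8, 23.6 and 24.4 FPKM in wild type. Knock-in replicates 2 and 3 lay above all wild-type libraries and knock-in replicate 1 within their range. Means were 25.4 ± 1.29 FPKM in knock-in and 24.0 ± 0.421 FPKM in wild type (SD, n = 3 each). Its log2 difference of 0.08 (SE 0.06) had the smallest unadjusted p of the members, at 0.216 in limma, and a 95% interval for the fold of 0.961 to 1.16. Of its relatives and those of Slc35d3, 5 of 6 were tested, with 1 higher, 4 lower and 0 called.

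Slc35d3, of the nucleotide-sugar transporter family and known in mouse for moving the D1 receptor to the cell surface, measured 14.7, 14.5 and 17.6 FPKM in knock-in replicates 1 to 3, against 13.6, 17.4 and 14.5 FPKM in wild type. In each group 1 library stood apart, at 17.6 FPKM in knock-in and 17.4 FPKM in wild type. The log2 difference was 0.04 (SE 0.11), with a 95% interval for the fold of 0.864 to 1.23. It was -0.04 without knock-in replicate 3 and -0.03 without wild type replicate 1.

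**Figure D2:**
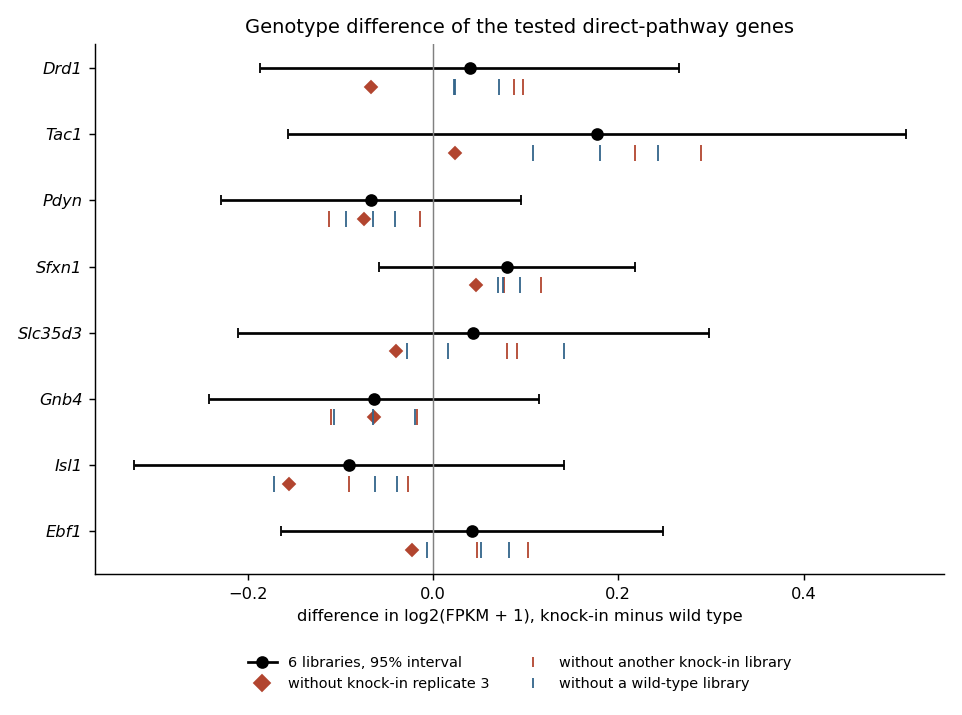
Difference in log2(FPKM + 1), knock-in minus wild type, of the 8 tested members with its 95% interval from limma (black), and below each the differences when 1 library is left out (diamond, without knock-in replicate 3; red ticks, without another knock-in library; blue ticks, without a wild-type library). Every interval spans 0. The diamond lies below 0 for Drd1 (-0.07), Slc35d3 (-0.04) and Ebf1 (-0.02), whose differences with all libraries were 0.04 each. It also lies below 0 for Pdyn, Isl1 and Gnb4, whose differences with all libraries were below 0 too.

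The levels of the 9 members kept the same order in all 6 libraries. From the top it ran Drd1, Tac1, Pdyn, Sfxn1, Slc35d3, Gnb4, Isl1, Ebf1 and Eya1. No neighbours in this order overlapped over libraries, the closest being Tac1 and Pdyn, where the lowest Tac1 value was 40.9 FPKM and the highest Pdyn value 40.0 FPKM. By mean level Drd1 ranked 451 and Eya1 14267 among the 23067 genes. The coefficient of variation over the 6 libraries ran from 4.72% in Sfxn1 and 5.56% in Pdyn to 16.4% in Tac1, against a median of 8.45% over all genes tested.

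Knock-in replicate 3 was the highest library for most members. Of the 9, 6 had their highest level in knock-in replicate 3 (Drd1, Tac1, Sfxn1, Slc35d3, Ebf1 and Eya1), and 5 of those were among the 8 tested. The lead was wide for Tac1, at 63.5 FPKM over 49.6 FPKM in the next library, and narrow for Slc35d3, at 17.6 FPKM over 17.4 FPKM. Over all 14156 genes tested, 17.6% had their highest level in that library. Relative to the wild-type mean on the log2 scale, knock-in replicate 3 stood at 0.48 for Tac1, 0.25 for Drd1 and 0.21 for Slc35d3, and at -0.05 for Pdyn and -0.06 for Gnb4. The lowest level was in knock-in replicate 1 for 4 members, Drd1, Pdyn, Gnb4 and Isl1.

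**Figure D3:**
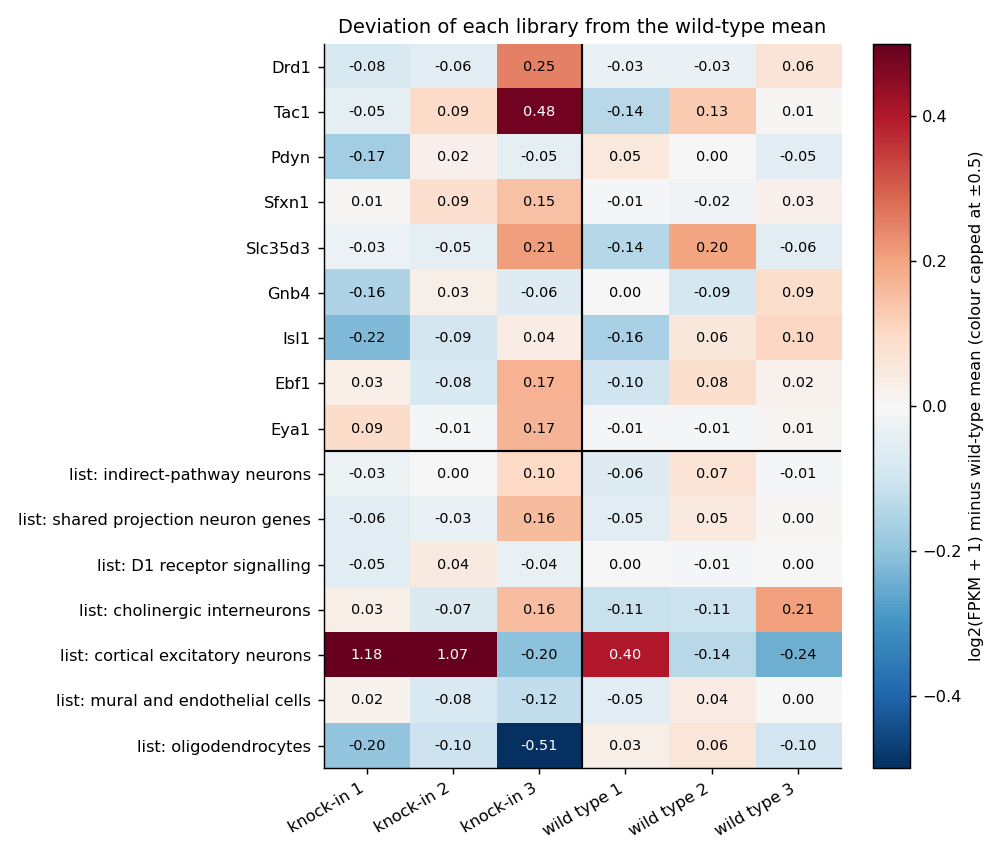
Log2(FPKM + 1) of each library (columns) minus the wild-type mean, for the 9 members (upper rows) and for the median of 7 gene lists (lower rows); numbers in cells are the values and the colour is capped at 0.5. Knock-in replicate 3 stands at 0.48 for Tac1 and at 0.16 for the median of shared projection neuron genes, and at -0.51 for that of oligodendrocyte genes.

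Many genes of projection neurons outside the 9 were also high in that library, but not all lists alike. Of 16 genes common to both pathways, 13 were highest in knock-in replicate 3, with a median of 0.16 relative to the wild-type mean, and of 7 tested indirect-pathway genes 5 were, with a median of 0.10. The median of the direct-pathway members tested was 0.16 there. Of 4 further genes enriched in direct-pathway neurons 2 were highest in knock-in replicate 3, with a median of 0.06. Of 23 tested genes of D1 signalling 8 were, with a median of -0.04. In the same library the 10 oligodendrocyte genes had a median of -0.51, and all 10 were lower in knock-in on average, 0 called and 5 with an unadjusted p under 0.05. They summed to 2351 to 2907 FPKM in knock-in and 2925 to 3322 FPKM in wild type, 0 at 0, so the sums did not overlap. Ugt8a, which makes a myelin lipid, averaged 44.3 ± 3.73 FPKM in knock-in and 52.5 ± 2.59 FPKM in wild type (SD, n = 3 each). Mitochondrially encoded genes took 23.2% of summed FPKM there and 18.0% to 20.5% in the other libraries. The part of either in the members' levels was not tested.

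Cortical RNA moved in the other libraries. The 11 listed genes of cortical excitatory neurons, 0 at 0, summed to 68.1, 53.1 and 13.5 FPKM in knock-in replicates 1 to 3, against 28.1, 15.1 and 13.3 FPKM in wild type, and 7 of the 7 tested were higher in knock-in with 0 called. Slc17a7, which loads glutamate into vesicles, measured 29.9, 25.2 and 3.41 FPKM in knock-in replicates 1 to 3. Its wild-type levels were 10.95, 3.55 and 2.73 FPKM. Drd1 was lowest in the 2 libraries with the most cortical RNA and highest in knock-in replicate 3, where little was measured. Wild type did not show such an order. Little cortical RNA was measured in wild type replicates 2 and 3 too, where Drd1 was at 75.9 and 81.2 FPKM. In wild type replicate 1, with more cortical RNA, Drd1 was at 75.8 FPKM. Ventral striatal and tubercle genes, 7 of 7 with a row, summed to 88.3 to 108 FPKM in knock-in and 102.9 to 117 FPKM in wild type, with 2 of the 5 tested higher, 3 lower and 0 called. Wfs1, which had the smallest p of that list, was at 41.0 ± 1.04 FPKM in knock-in and 47.7 ± 2.79 FPKM in wild type (unadjusted p = 0.0117, adjusted p = 0.997 in limma). Genes of ependyma and choroid plexus, 6 of 8 tested, were all lower in knock-in, 0 called and 4 with an unadjusted p under 0.05, and summed to 25.8, 34.3 and 17.1 FPKM in knock-in replicates 1 to 3, against 41.0, 398 and 36.8 FPKM in wild type. Of the high sum, 374 FPKM was Ttr, a choroid plexus gene, in wild type replicate 2. The part of these tissues in the members' levels was not tested.

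Dividing each library by the geometric mean of the 16 shared projection neuron genes, a scaling chosen after the data were seen, narrowed the spread of Drd1 in knock-in. That divisor was itself largest in knock-in replicate 3, at 1.10 relative to its mean, against 0.957 to 1.02 in the other libraries. A lower value in that library was thus built in, and the narrowing is no test. The scaled levels of Drd1 were 76.9, 77.3 and 84.0 in knock-in replicates 1 to 3, against 79.0, 74.5 and 81.6 in wild type, in FPKM after scaling. The SD of Drd1 in knock-in was 3.99 after scaling and 10.7 before it, while that in wild type was 3.56 after and 3.08 before. The knock-in SD of Pdyn and Gnb4 was wider after scaling, at 3.56 FPKM for Pdyn and 0.529 FPKM for Gnb4, against 2.58 and 0.376 FPKM before scaling. Tac1 in knock-in replicate 3 remained the highest value after scaling, at 57.6, against 42.6 to 50.0 in the other libraries. With this scaling 0 members were called, and the median log2 difference of the 8 was 0.02.

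Direct and indirect pathways were set side by side by ratio within a library. The ratio of Drd1 to Drd2, the D2 receptor gene, was 0.614, 0.615 and 0.726 in knock-in replicates 1 to 3, against 0.620, 0.630 and 0.670 in wild type. The 2 lowest and the highest ratio were all knock-in. Means were 0.652 ± 0.0643 in knock-in and 0.640 ± 0.0262 in wild type (SD, n = 3 each), and an exact two-sided permutation test gave p = 1, where 3 against 3 cannot go below 0.1. The ratio of Tac1 to Penk was 0.0462 ± 0.00752 in knock-in and 0.0430 ± 0.00574 in wild type (exact permutation p = 0.7, and p = 1 for both ratios after Benjamini-Hochberg adjustment over the pair of tests). Without knock-in replicate 3 the differences in ratio were -0.0257 and -0.00114.

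**Figure D4:**
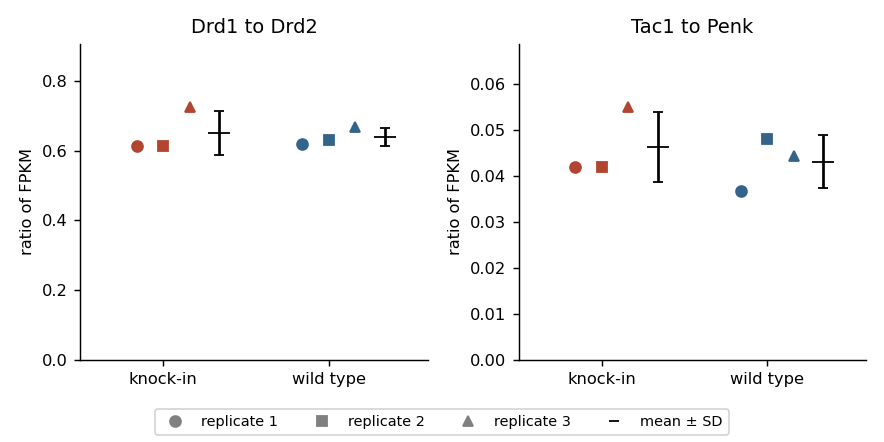
Ratio of FPKM within each library, Drd1 to Drd2 on the left and Tac1 to Penk on the right, with both vertical axes from 0; points are libraries and black bars means ± SD (n = 3 each). The highest ratio in each panel is that of knock-in replicate 3, at 0.726 and 0.0549, and the groups overlap in both.

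No indirect-pathway gene passed the test. Of 9 listed, 8 had a row and 7 were tested, with 5 higher, 2 lower, 0 called and a median log2 difference of 0.02. Drd2 averaged 123 ± 4.12 FPKM in knock-in and 121 ± 0.886 FPKM in wild type, and Adora2a 159 ± 5.61 FPKM in knock-in and 153 ± 1.43 FPKM in wild type (SD, n = 3 each). Penk, at 1118 ± 67.2 FPKM in knock-in and 1057 ± 49.7 FPKM in wild type, was far above either direct-pathway peptide gene on this scale. Whether the pathways differ in their response to genotype was tested only through the ratios. Further genes enriched in direct-pathway neurons, 4 of 4 tested, gave 2 higher, 2 lower and 0 called. Among them Chrm4, the M4 muscarinic receptor, had a 95% interval of the fold from 0.886 to 1.11. Of the 16 shared genes 10 were higher, 6 lower and 0 called, and Arpp19, a phosphatase regulator, and Rasgrp2, an exchange factor for Rap, had the smallest p, with log2 differences of 0.18 and 0.10.

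The genes whose pattern over the 6 libraries was most like that of Drd1 were Tbc1d23, Ltn1 and Hs6st2, with Pearson r of 0.997, 0.995 and 0.995 on the log2 scale. They were picked as the highest of 14156 values, so this is a description with no test. Hs6st2 measured 5.49, 5.53 and 8.33 FPKM in knock-in replicates 1 to 3, against 5.60, 5.90 and 6.53 FPKM in wild type, again highest in knock-in replicate 3. Drd2 had an r of 0.917 with Drd1, Tac1 0.824 and Sfxn1, the neighbour of Drd1 on chromosome 13, 0.745. By r these ranked only 269, 809 and 1296 among the genes tested, so many other genes were more like Drd1. Pdyn had an r of -0.04.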

How the data were processed

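One FPKM value per gene and library was deposited by the authors, per the file headers. The submitters' processing notes name StringTie, SAMtools, HISAT2 and FastQC but no version. Build, annotation and depth: not given in the sources used here, so precision was taken from the spread between libraries. The table held 0 values at 0, so 0 at 0 in a list was fixed in advance and says nothing about detection. Each column was matched to a sample through its code in the descriptions.

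The scale was log2(FPKM + 1), on which changes of low genes come out too small. The fold intervals were turned back from that scale, so they are folds of FPKM + 1 and too narrow for low genes. Genes averaging 1 FPKM or more were tested with limma 3.58.1 in R 4.3.3 (trended prior variance, robust, two-sided, Benjamini-Hochberg adjustment over all 14156 genes, threshold 0.05, 95% intervals). The fit was also run on data simulated from its own variances with no shift common to a library, so that run cannot check such shifts. Alternatives changed the pseudocount, filter, scaling, prior variance and libraries.

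Members and lists were chosen with earlier results of these data known. All members were named, with Drd2, Penk, Adora2a, Lrrk2, Slc17a7, any genes of the D1 signalling and peptide lists, up to 2 genes with the smallest p per direction in other lists, and the 3 genes most like Drd1. Xist was added after its values were seen, and Ddx3y was looked up too. Promoters are from RefSeq on GRCm38.p6.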

Additional observations from a re-analysis of the deposited data

How the results depend on the processing

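Across 16 alternatives 0 members were called. The number of genes called over the whole table was 3, and leaving out 1 library gave 3 to 15. It was 11, 15 and 6 without knock-in replicates 1, 2 and 3, and 8 without wild type replicate 2. When 1 library was left out, the log2 difference ranged from -0.067 to 0.10 for Drd1, from -0.040 to 0.14 for Slc35d3, from -0.023 to 0.10 for Ebf1, from -0.0090 to 0.036 for Drd2, from -0.055 to 0.053 for Chrm4, from -0.11 to 0.019 for Gnal, from -0.038 to 0.014 for Adcy5, from -0.17 to 0.15 for Gng7, from -0.067 to 0.092 for Tacr1, from -0.17 to 0.085 for Oprk1 and from -0.0010 to 0.25 for Slc5a7. Direction was kept, with ranges of 0.024 to 0.29 for Tac1, -0.11 to -0.014 for Pdyn, -0.17 to -0.027 for Isl1, 0.046 to 0.12 for Sfxn1 and -0.11 to -0.017 for Gnb4. The difference in the ratio of Drd1 to Drd2 ranged from -0.0257 to 0.0302 and that of Tac1 to Penk from -0.00114 to 0.00571. Rescaling to a fixed sum turned Drd1 to -0.0046, Drd2 to -0.026, Gng7 to -0.021 and Tacr1 to -0.0017. With that rescaling the median over all genes tested was -0.058, against -0.014 in the main setting. Median-of-ratios scaling turned Chrm4 to 0.016, Adcy5 to 0.016 and Oprk1 to 0.012. Quantile normalization turned Penk to -0.042, Adcy5 to 0.027 and Oprk1 to 0.015, and scaling to shared projection neuron genes turned Drd2 to -0.0027. None of these differences was called in any setting; the cause was not tested.

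Same-numbered libraries deviated together with correlations of -0.0113, -0.0739 and 0.186 over genes, so the numbers were not taken as pairs, and not every library correlated best with its own number. With the replicate number as a block 2 genes and 0 members were called.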
